A study of Homo sapiens with 2 samples.

Results

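The genes described here are 9 enzymes of the intestinal brush border: the aminopeptidases ANPEP and ENPEP, the dipeptidyl peptidase DPP4, the peptidyl-dipeptidase ACE, the endopeptidases MME and MEP1A, the disaccharidase SI, the intestinal alkaline phosphatase ALPI and the serine protease TMPRSS2. They were chosen by symbol, and all 9 were found once each among the 36601 genes listed for both libraries. The cells came from colon organoids grown out of 1383D6, a line of human induced pluripotent stem cells, built as a model of ulcerative colitis. The study has 2 single-cell 3' RNA libraries from that 1 line, untreated organoids (CNT) and organoids given TNF-α, IFN-γ and IL-1β together for 8 days (3CK), and both went through the same differentiation and growth media. With 1 library a group there is no test of the treatment. Every interval below is an exact 95% interval that covers counting error only, and differences between organoid cultures are not in it.

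The brush border is the dense carpet of microvilli on the luminal face of absorptive epithelial cells, and its membrane carries enzymes anchored with the active site facing the lumen. Its peptidases cut food peptides down to amino acids, dipeptides and tripeptides that transporters can take up, its disaccharidases split sugars, and alkaline phosphatase removes phosphate groups from lipids and from bacterial lipopolysaccharide. Most of these enzymes increase as enterocytes mature and are more abundant in the small intestine than in the colon, and several are also made by kidney tubules and by stromal cells.

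Levels are given in CPM, the unique molecular identifiers (UMIs) of a gene summed over a class of cells, per 1000000 UMIs of that class. One UMI stands for 1 captured RNA 3' end, so no length scaling was needed to set genes side by side, although capture can differ between genes. Epithelial cells were barcodes with at least 10000 UMIs, at least 2 EPCAM UMIs per 10000 and fewer than 5 UMIs of COL1A1, COL1A2 and COL3A1 together per 10000. They numbered 943 of 1458 deep barcodes in CNT and 717 of 995 in 3CK, with 68374274 and 68058536 UMIs. A median cell held 68469 UMIs in CNT against 93963 in 3CK, so shares of cells with a UMI are given after each cell was thinned to 10000 UMIs.

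Within the epithelial cells, those with at least 2 FABP2 and RBP2 UMIs per 10000, 2 carrier proteins of absorptive enterocytes, were set apart. There were 76 such cells in CNT, 8.06% of the epithelial cells (6.40 to 9.98), and 13 in 3CK, 1.81% (0.969 to 3.08). FABP2 and RBP2 themselves stood at lower levels in 3CK, 191.5 against 19.4 CPM and 71.6 against 1.18 CPM over all epithelial cells, so the sizes of these classes follow the levels of those genes. The threshold had 28 CNT and 6 3CK cells just under it, at 1 to 2 per 10000, and 15 and 4 cells just over it, at 2 to 4 per 10000.

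The 7 epithelial markers were all at 10 CPM or more in the epithelial cells of both libraries. They summed to 9186 CPM in CNT and 20201 CPM in 3CK epithelial cells, and to 8410 and 11029 CPM in collagen-positive cells. In CNT their sum was thus close in both classes, although only 5 of the 7 reached 10 CPM in collagen-positive cells. The 8 mesenchymal markers summed to 186.5 CPM in CNT and 67.6 CPM in 3CK epithelial cells, beside 10407 and 4672 CPM in the collagen-positive cells. The 9 enterocyte markers summed to 7346 CPM in CNT against 2264 CPM in 3CK over epithelial cells, and to 43416 and 22312 CPM in the FABP2/RBP2 cells. All 7 hepatic markers were also present at 10 CPM or more in the epithelial cells, with sums of 100764 and 32759 CPM. The kidney proximal tubule markers summed to 132.3 and 18.0 CPM, of which CUBN, a receptor that ileal enterocytes make too, gave 117.5 and 7.41 CPM. The interferon-response gene IRF1 was higher in the 3CK library, at 16.1 against 382.3 CPM. The shifts in the epithelial, hepatic and enterocyte markers ran alongside every result below, and their part in those results was not tested beyond the values given by range of TTR, the most abundant hepatic marker.

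RefSeq promoter entries were found for 7 of the 9 genes; MEP1A and TMPRSS2 had none. The 250 bases before the start are shown for SI and ALPI, which were both more than 4-fold lower in 3CK epithelial cells, for the 2 starts of ANPEP, which was lower in epithelial cells and higher in collagen-positive cells, and for DPP4, which differed by less than 2-fold. Capitals mark matches, on either strand, to a half-site of the HNF1 factors (GTTAAT) or to the core of the CDX site (TTTAT), the only motifs of those searched with a match in these windows. The windows run 5′ to 3′ along the gene's strand in GRCh38.p14, on the minus strand for SI, ANPEP and DPP4 and on the plus strand for ALPI.
SI, chr3:165078497-165078746: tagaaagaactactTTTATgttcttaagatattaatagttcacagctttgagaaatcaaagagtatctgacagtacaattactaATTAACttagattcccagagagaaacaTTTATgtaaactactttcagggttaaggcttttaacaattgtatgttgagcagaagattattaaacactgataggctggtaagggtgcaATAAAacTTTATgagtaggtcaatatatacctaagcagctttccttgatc
ALPI, chr2:232455903-232456152: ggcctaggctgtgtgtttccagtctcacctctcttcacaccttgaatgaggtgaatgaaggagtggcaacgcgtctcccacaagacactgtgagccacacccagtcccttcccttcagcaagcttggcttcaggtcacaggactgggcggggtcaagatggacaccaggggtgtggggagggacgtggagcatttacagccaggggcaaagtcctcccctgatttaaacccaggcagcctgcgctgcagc
ANPEP, downstream start, chr15:89806629-89806878: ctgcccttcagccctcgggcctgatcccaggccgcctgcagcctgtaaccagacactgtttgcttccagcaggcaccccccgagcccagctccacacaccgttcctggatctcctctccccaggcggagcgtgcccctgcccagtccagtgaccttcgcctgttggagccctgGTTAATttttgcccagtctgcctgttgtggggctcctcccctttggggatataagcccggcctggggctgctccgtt
ANPEP, upstream start, chr15:89814853-89815102: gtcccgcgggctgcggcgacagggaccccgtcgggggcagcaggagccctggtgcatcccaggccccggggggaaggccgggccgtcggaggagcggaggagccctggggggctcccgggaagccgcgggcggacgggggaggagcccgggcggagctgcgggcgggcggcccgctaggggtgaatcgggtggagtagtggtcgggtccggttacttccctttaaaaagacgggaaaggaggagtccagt
DPP4, chr2:162074216-162074465: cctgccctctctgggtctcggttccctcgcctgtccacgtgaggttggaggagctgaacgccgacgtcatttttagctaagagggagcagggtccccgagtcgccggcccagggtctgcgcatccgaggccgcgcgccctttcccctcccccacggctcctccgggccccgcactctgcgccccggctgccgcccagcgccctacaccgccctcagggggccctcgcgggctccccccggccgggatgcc
The SI window had 1 HNF1 half-site, its first base at -166 from the start, and 4 CDX cores at -236, -139, -50 and -43. The downstream ANPEP window had 1 HNF1 half-site at -77, while the windows of ALPI, DPP4 and the upstream ANPEP start had no match to either. Base composition set the SI window apart, with 31.6% G and C against 58.4% for ALPI, 64.4% and 74.0% for the ANPEP starts and 73.6% for DPP4. Of 34943 promoter windows of the same length, 6.24% held the HNF1 half-site and 32.8% the CDX core. The GATA core (GATAA) was in 20.5% of all windows and the interferon-gamma activated sequence TTCNNNGAA in 6.56%, and neither was in the windows shown. ANPEP is known to have a promoter used in intestinal and kidney epithelium and a separate upstream one used in myeloid cells and fibroblasts; counts of RNA 3' ends do not tell which start was used.

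Over all epithelial cells, 5 of the 9 genes were at least 2-fold lower in 3CK (ANPEP, MME, MEP1A, SI and ALPI), 1 was at least 2-fold higher (TMPRSS2), and DPP4, ACE and ENPEP differed by less. Among 16733 genes that reached 1 CPM in 1 library or both, 11.8% were 2-fold lower and 8.89% were 2-fold higher. The median log2 ratio of 3CK over CNT was -1.06 for the 9 genes and 0.01 for all genes, whose quartiles were -0.45 and 0.39. By level in CNT, the order was DPP4, ANPEP, MEP1A, TMPRSS2, ALPI, ACE, ENPEP, SI and MME, and the intervals of ACE, ENPEP and SI overlapped. In 3CK the order became DPP4, TMPRSS2, ANPEP, MEP1A, ENPEP, ALPI, ACE, MME and SI, in which the intervals of ENPEP and ALPI did not overlap and those of MME and SI did.

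**Figure D1:**
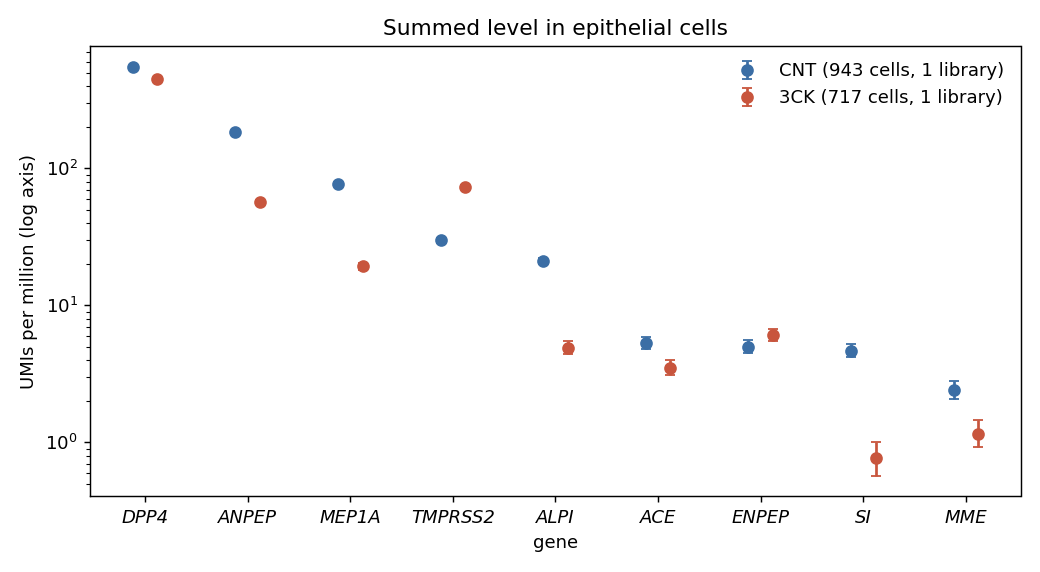
Level of the 9 genes in the epithelial cells of CNT (943 cells) and 3CK (717 cells), in CPM on a log axis, with exact 95% counting intervals that are smaller than the points for abundant genes. TMPRSS2 and ENPEP are the genes whose 3CK point lies above the CNT point, and SI has the widest gap in the lower direction, from 4.67 to 0.764 CPM.

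ANPEP (aminopeptidase N, chr15:89784895-89815401, minus strand) cleaves single amino acids from the N-terminus of peptides and is one of the most abundant brush-border proteins. It had 12650 UMIs in CNT epithelial cells against 3884 in 3CK, or 185.0 and 57.1 CPM. The 3CK library was 3.24-fold lower, a log2 ratio of -1.70 (-1.75 to -1.64), and 5.504% of all genes had a ratio as low or lower. The median cell had 109.2 CPM in CNT against 22.5 CPM in 3CK, and the share of thinned cells with a UMI was 60.8% (57.6 to 63.9) against 31.4% (28.0 to 34.9), so the lower level was not limited to a few cells. The tenth of cells with the most ANPEP held 44.8% of its UMIs in CNT and 52.4% in 3CK.

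Within FABP2/RBP2 cells, ANPEP stood at 527.3 CPM in CNT against 206.8 CPM in 3CK, a log2 ratio of -1.35 (-1.58 to -1.13). In the other epithelial cells it stood at 157.1 and 55.1 CPM, a log2 ratio of -1.51 (-1.57 to -1.46). The direction was the opposite in collagen-positive cells with EPCAM under 2 per 10000 (335 cells in CNT, 109 in 3CK), where ANPEP had 367 and 387 UMIs, 18.1 CPM in CNT against 40.6 CPM in 3CK, a log2 ratio of 1.17 (0.96 to 1.38). Thinned, 17.0% and 25.7% of those collagen-positive cells had an ANPEP UMI.

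ENPEP (glutamyl aminopeptidase, chr4:110365733-110565285, plus strand) removes acidic N-terminal residues and is known for trimming angiotensin peptides. Its epithelial level was low in both libraries, 342 UMIs or 5.00 CPM (4.49 to 5.56) in CNT and 414 UMIs or 6.08 CPM (5.51 to 6.70) in 3CK. The log2 ratio was 0.28 (0.07 to 0.49), with 69.1% of all genes at or below it. In FABP2/RBP2 cells ENPEP had 55 UMIs in CNT against 25 in 3CK, 10.7 and 28.7 CPM, a log2 ratio of 1.43 (0.69 to 2.14), but 10 of the 25 3CK UMIs came from 1 cell. Without the epithelial cells at 500 or more TTR UMIs per 10000 its epithelial ratio was on the other side of 0, at -0.31.

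DPP4 (dipeptidyl peptidase 4, chr2:161992245-162074394, minus strand) releases dipeptides from chains with proline or alanine in the second position and inactivates incretin hormones. It was the most abundant of the 9 in both libraries, with 37501 UMIs in CNT against 30754 in 3CK, or 548.5 and 451.9 CPM. The log2 ratio of -0.28 (-0.30 to -0.26) lay well inside the 2-fold range. The share of thinned cells with a DPP4 UMI was 93.1% (91.3 to 94.6) in CNT and 92.3% (90.1 to 94.2) in 3CK, and the median cell had 511.8 and 403.6 CPM.

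By class, DPP4 had a log2 ratio of -0.15 (-0.28 to -0.02) in FABP2/RBP2 cells (740.9 against 667.7 CPM) and -0.25 (-0.27 to -0.22) in the other epithelial cells (532.8 against 449.1 CPM). In collagen-positive cells it was 114.9 CPM in CNT against 151.8 CPM in 3CK, a log2 ratio of 0.40 (0.31 to 0.50). Thinned, 56.4% of the CNT and 71.6% of the 3CK collagen-positive cells had a DPP4 UMI, a share far above that of ALPI or TMPRSS2 there.

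ACE (angiotensin-converting enzyme, chr17:63477061-63498380, plus strand) removes dipeptides from the C-terminus of peptides. It had 363 UMIs in CNT against 239 in 3CK over epithelial cells, 5.31 CPM (4.78 to 5.88) and 3.51 CPM (3.08 to 3.99), and the 3CK level was 1.51-fold lower with a log2 ratio of -0.60 (-0.84 to -0.36). In FABP2/RBP2 cells only 4 UMIs were left in 3CK against 44 in CNT, and the interval of the ratio, -2.83 to 0.57 on the log2 scale, held no difference. A difference there was not detectable at this depth.

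MME (neprilysin, chr3:155024124-155183704, plus strand) is a metalloendopeptidase that cuts on the amino side of hydrophobic residues. In epithelial cells it had 166 UMIs in CNT against 79 in 3CK, 2.43 CPM (2.07 to 2.83) and 1.16 CPM (0.919 to 1.45), a log2 ratio of -1.06 (-1.47 to -0.67) whose interval reaches below the 2-fold mark. Most of its RNA was in other cells: collagen-positive cells had 2535 and 833 UMIs, 124.8 CPM in CNT against 87.4 CPM in 3CK. The epithelial level was 1.95% of the collagen-positive level in CNT and 1.33% in 3CK, beside 0.868% and 0.446% for DCN, 7.32% and 4.597% for LUM and 0.767% and 0.125% for THY1, which mark stromal cells. The part of free stromal RNA in the epithelial MME counts was not tested. In FABP2/RBP2 cells MME had 40 UMIs in CNT against 0 in 3CK. With 3 UMIs put in place of the 0, MME was 2.25-fold lower, a log2 ratio of -1.17. The exact interval of that ratio reached up to -0.80, which is inside the 2-fold range.

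MEP1A (the alpha subunit of meprin, chr6:46793389-46839778, plus strand) is a secreted or membrane-bound metalloprotease of the astacin family and is known as a susceptibility gene for inflammatory bowel disease. It had 5279 UMIs in CNT epithelial cells against 1308 in 3CK, 77.2 and 19.2 CPM. The 3CK library was 4.02-fold lower, a log2 ratio of -2.01 (-2.09 to -1.92), and 4.06% of all genes had a ratio as low or lower. Thinned, 42.9% (39.8 to 46.2) of CNT cells and 17.3% (14.6 to 20.3) of 3CK cells had a UMI, and the median cell had 53.1 and 8.94 CPM.

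MEP1A was most abundant in FABP2/RBP2 cells, at 182.9 CPM in CNT against 71.2 CPM in 3CK, a log2 ratio of -1.36 (-1.76 to -0.99). In the other epithelial cells it was 68.6 and 18.5 CPM, a log2 ratio of -1.89 (-1.98 to -1.80). Collagen-positive cells were nearly empty of it, with 49 UMIs in CNT against 9 in 3CK, and the thinned share of them with a UMI was 1.49% in CNT and 0 of 109 cells in 3CK, which allows up to 2.75% by the limit of 3 counts in 109.

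SI (sucrase-isomaltase, chr3:164978898-165078496, minus strand) splits sucrose and isomaltose and marks the small-intestinal enterocyte. It was scarce, with 319 UMIs in CNT epithelial cells against 52 in 3CK, 4.67 CPM (4.17 to 5.21) and 0.764 CPM (0.571 to 1.00). The 3CK level was 6.11-fold lower, a log2 ratio of -2.61 (-3.06 to -2.18), the lowest among the 9 genes, and 2.10% of all genes had a ratio as low or lower. Of the CNT UMIs, 53 of 319 (16.6%) came from 1 cell, and 88 of the 943 CNT cells and 21 of the 717 3CK cells had any SI UMI before thinning.

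The FABP2/RBP2 cells had 113 SI UMIs in CNT and 2 in 3CK, 21.9 and 2.30 CPM, and the log2 ratio of -3.25 had an interval from -6.32 to -1.37. After thinning to 10000 UMIs no 3CK cell of this class had an SI UMI, against 10 of 76 CNT cells, and the ratio was then a bound of -0.12 that does not reach 2-fold. In the other epithelial cells 206 and 50 UMIs gave 3.26 and 0.744 CPM, a log2 ratio of -2.13 (-2.61 to -1.68). Collagen-positive cells had 2 UMIs in CNT against 0 in 3CK, too few for a ratio.

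ALPI (intestinal alkaline phosphatase, chr2:232456125-232460753, plus strand) is anchored in the apical membrane and dephosphorylates lipopolysaccharide. It had 1443 UMIs in CNT epithelial cells against 333 in 3CK, 21.1 and 4.89 CPM. The 3CK level was 4.31-fold lower, a log2 ratio of -2.11 (-2.29 to -1.94), and 15.9% (13.6 to 18.4) of thinned CNT cells against 5.997% (4.37 to 7.99) of thinned 3CK cells had a UMI. The related genes ALPP and ALPG had 72 and 99 UMIs in CNT and 13 and 26 in 3CK. Whether reads were assigned to the wrong gene among these was not tested.

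Within the FABP2/RBP2 cells ALPI had 349 UMIs in CNT against 42 in 3CK, 67.6 and 48.3 CPM, and the log2 ratio of -0.49 (-0.98 to -0.02) stayed inside the 2-fold range. The median cell had 50.7 CPM in CNT against 21.9 CPM in 3CK. In the other epithelial cells the levels were 17.3 and 4.33 CPM, a log2 ratio of -2.0 (-2.19 to -1.81). Of the 42 UMIs, 13 came from 1 cell, and the ratio in FABP2/RBP2 cells ran from -1.03 to 0.76 over the other settings of the cell classes and scaling.

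TMPRSS2 (chr21:41464300-41531116, minus strand) is a membrane-anchored serine protease of epithelial cells that activates the spike and haemagglutinin proteins of respiratory viruses and is itself regulated by androgen in the prostate. It had 2034 UMIs in CNT epithelial cells against 5006 in 3CK, 29.7 and 73.6 CPM. The 3CK level was 2.47-fold higher, a log2 ratio of 1.31 (1.23 to 1.38), and 93.6% of all genes had a lower or equal ratio. The thinned share of cells with a UMI was 21.0% (18.4 to 23.7) in CNT and 41.4% (37.8 to 45.1) in 3CK, and the median cell had 15.8 and 36.7 CPM.

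In FABP2/RBP2 cells TMPRSS2 had 452 UMIs in 76 CNT cells and 447 in 13 3CK cells, 87.6 and 513.7 CPM. The 3CK level was 5.86-fold higher, a log2 ratio of 2.55 (2.36 to 2.74). The quartiles of single cells, 33.2 to 103.1 CPM in CNT and 309.6 to 748.6 CPM in 3CK, did not overlap. The other epithelial cells had 25.03 and 67.9 CPM, a log2 ratio of 1.44 (1.36 to 1.52), and collagen-positive cells had 23 and 24 UMIs, 1.13 and 2.52 CPM.

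The last 5772 bases of TMPRSS2, chr21:41464300-41470071, overlap the end of MX1, an interferon-induced antiviral gene on the other strand, in the GENCODE annotation. Whether the counting used strand is not given in the sources used here, and without it reads of the 2 genes could not be told apart. MX1 stood at 11.2 CPM in CNT against 233.4 CPM in 3CK epithelial cells, and at 12.6 and 99.3 CPM in collagen-positive cells, where TMPRSS2 reached 2.52 CPM in 3CK. Across the 717 3CK epithelial cells, which share 1 library, the correlation of TMPRSS2 with MX1 was 0.04, and across the 943 CNT cells it was 0.12. Annotated antisense genes also overlap ENPEP, DPP4 and MME.

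**Figure D2:**
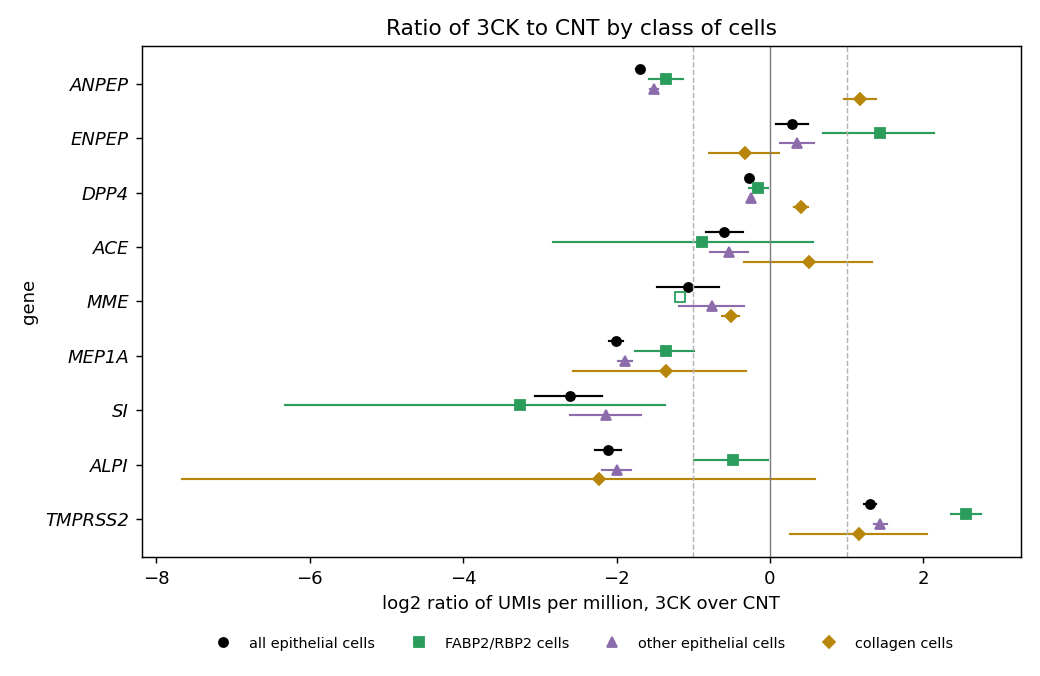
Log2 ratio of 3CK over CNT for each gene in all epithelial cells, FABP2/RBP2 cells, other epithelial cells and collagen-positive cells, with exact 95% counting intervals; the open square is a bound for a gene at 0 UMIs in 3CK, dashed lines mark 2-fold, and genes with too few UMIs in a class have no point. ANPEP and DPP4 lie on the left of 0 in epithelial classes and on the right in collagen-positive cells, at 1.17 and 0.40.

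In FABP2/RBP2 cells as a class, 4 of the 9 genes were at least 2-fold lower in 3CK (ANPEP, MME, MEP1A and SI) and 2 were at least 2-fold higher (ENPEP and TMPRSS2). MME is counted here with 3 UMIs in place of its 0 in 3CK, and its interval reached inside the 2-fold range. Of 14474 genes measured in that class, 14.5% were 2-fold lower and 14.2% were 2-fold higher. The median log2 ratio was -0.89 for the 9 genes and 0.03 for all genes. In the other epithelial cells 4 were lower (ANPEP, MEP1A, SI and ALPI) and 1 was higher (TMPRSS2), against 11.8% and 8.86% of 16731 genes, with medians of -0.76 for the 9 and -0.01 for all genes.

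Reweighting the 3CK cells to the CNT shares of the FABP2/RBP2 and other epithelial classes left the directions as they were. The log2 ratio of ANPEP became -1.47, that of MEP1A -1.78, that of SI -2.44, that of ALPI -1.46 and that of TMPRSS2 1.77. DPP4 stood at -0.24 after this reweighting. The largest step was that of ALPI, from -2.11 to -1.46.

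TTR, a plasma carrier protein best known from liver, divided the epithelial cells unevenly. In CNT, 497 cells had at least 500 TTR UMIs per 10000, 365 had 50 to 500 and 81 had fewer, against 69, 427 and 221 cells in 3CK. ANPEP was 189.5 and 136.9 CPM in the cells with the most TTR, a log2 ratio of -0.47 (-0.58 to -0.36), 197.5 and 52.0 CPM in the middle range, a ratio of -1.93 (-2.0 to -1.85), and 94.7 and 43.4 CPM in the cells with the least, a ratio of -1.12 (-1.29 to -0.96). It was therefore lower in 3CK in each range, by different amounts.

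MEP1A was also lower in each TTR range, with log2 ratios of -0.98 in the highest, -2.04 in the middle and -0.94 in the lowest range. For ALPI those ratios were -0.86, -2.05 and -1.01, and for SI -1.52, -3.18 and -1.58, the last with an interval from -3.37 to 0.27 on 6 and 7 UMIs. TMPRSS2 was higher in each range, at 1.45, 0.94 and 1.39. DPP4 had -0.07 and -0.29 in the upper ranges and 0.75 (0.66 to 0.83) in the lowest range, where it stood at 235.4 CPM in CNT against 395.1 CPM in 3CK. The scarcer genes varied more: over the highest, middle and lowest ranges ENPEP had 0.17, -0.72 and -0.01, ACE -0.09, -1.02 and 0.13, and MME -2.28, -1.84 and -1.46. With 3CK reweighted to the CNT shares of the 3 ranges, the log2 ratio of ANPEP was -0.91, MEP1A -1.30, SI -2.35, ALPI -1.19, DPP4 -0.11 and TMPRSS2 1.24. ANPEP was then inside the 2-fold range.

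**Figure D3:**
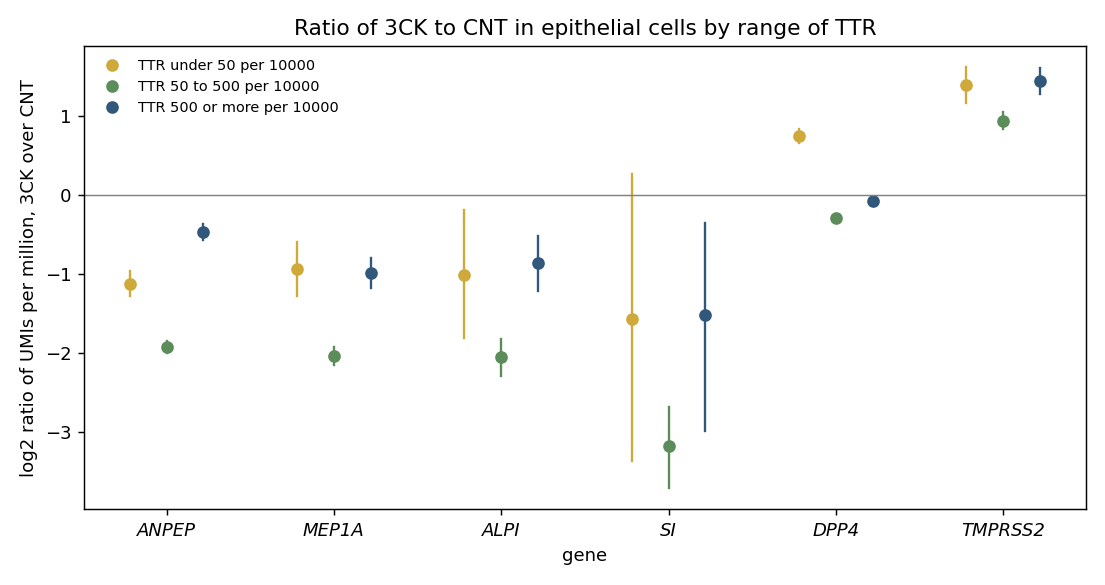
Log2 ratio of 3CK over CNT in epithelial cells split by TTR UMIs per 10000 of the cell (under 50, 50 to 500, and 500 or more), for 6 of the 9 genes, with exact 95% counting intervals. ANPEP, MEP1A, ALPI and SI lie below 0 in each range, TMPRSS2 above 0, and DPP4 crosses 0, from 0.75 in the lowest range to -0.07 in the highest.

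Epithelial cells also differed among themselves along the FABP2 and RBP2 gradient. In CNT, ANPEP was 120.8 CPM in the 498 cells with no FABP2 or RBP2 UMI, 180.1 CPM in 292 cells above 0 and up to 0.5 per 10000, 295.2 CPM in 77 cells up to 2, 471.5 CPM in 34 cells up to 10 and 561.7 CPM in 42 cells above that. ALPI went from 11.3 CPM in the first of these ranges to 78.6 CPM in the last, MEP1A from 56.4 to 186.3 CPM, and SI from 3.23 to 20.0 CPM with 24.9 CPM in the range before the last. DPP4 varied least, from 478.0 CPM to 637.2 CPM with a maximum of 909.4 CPM in the fourth range.

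In 3CK the ranges held 626, 64, 14, 7 and 6 cells. ANPEP went from 45.8 CPM in the first to 250.6 CPM in the last and MEP1A from 16.6 to 74.7 CPM, each with a lower value than CNT in every range, although the ANPEP intervals overlapped in the middle one. TMPRSS2 went from 58.3 to 455.0 CPM in 3CK and from 24.2 to 85.2 CPM in CNT, so it was more abundant in cells richer in FABP2 and RBP2 in both libraries. ALPI reached 57.2 CPM in the last 3CK range, where its interval overlapped that of CNT.

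**Figure D4:**
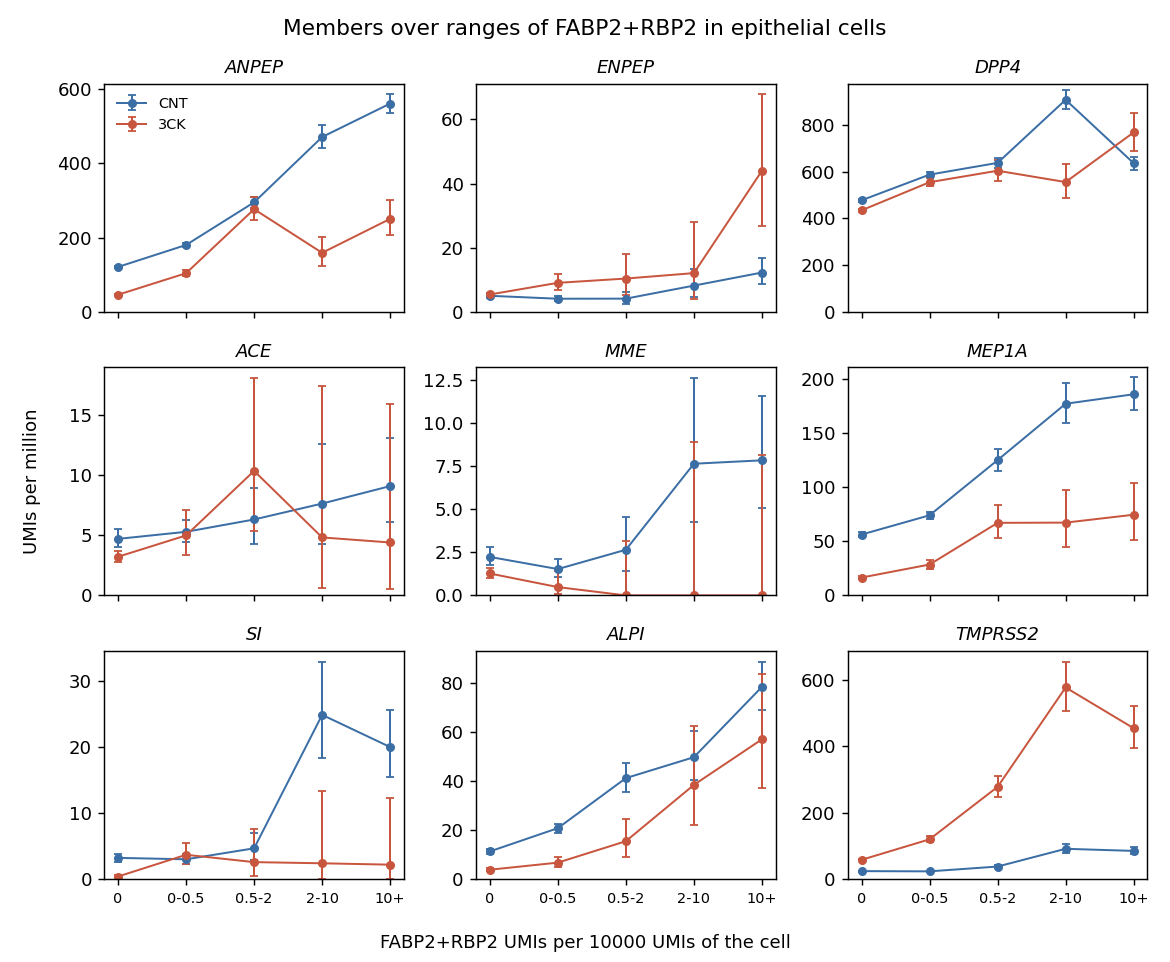
Level of each gene in CPM over 5 ranges of FABP2 and RBP2 UMIs per 10000 in epithelial cells of CNT and 3CK, with exact 95% counting intervals; each panel has its own axis from 0. ANPEP, MEP1A, ALPI and TMPRSS2 have higher levels in the last range than in the first in both libraries, and the last 3CK ranges rest on 7 and 6 cells.

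Some single cells carried several of these enzymes together, while the median epithelial cell had a UMI of 2 of the 9 genes in both libraries after thinning. After thinning, 191 of 943 CNT epithelial cells (20.3%) and 69 of 717 3CK cells (9.62%) had a UMI of at least 4 of the 9 genes. The share was 49 of 76 in CNT FABP2/RBP2 cells (64.5%) and 5 of 13 in 3CK (38.5%). At most 7 of the 9 genes were seen together in 1 CNT cell and 6 in 1 3CK cell.

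Across the 943 CNT epithelial cells, the pairs with the highest Pearson correlation of log2(1 + UMIs per 10000) were ANPEP with MEP1A (0.46), ANPEP with DPP4 (0.44), MEP1A with ALPI (0.44), ANPEP with ALPI (0.40) and DPP4 with MEP1A (0.40). Across the 717 3CK cells the same pairs had 0.35, 0.29, 0.39, 0.23 and 0.38. TMPRSS2 varied with MEP1A (0.32 in CNT, 0.31 in 3CK) and ANPEP (0.29 and 0.36), although its level differed between the libraries in the other direction. MME lay between -0.11 and 0.17 with every other gene in CNT. The cells of a correlation share 1 library and differ in depth, so these values are a description.

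**Figure D5:**
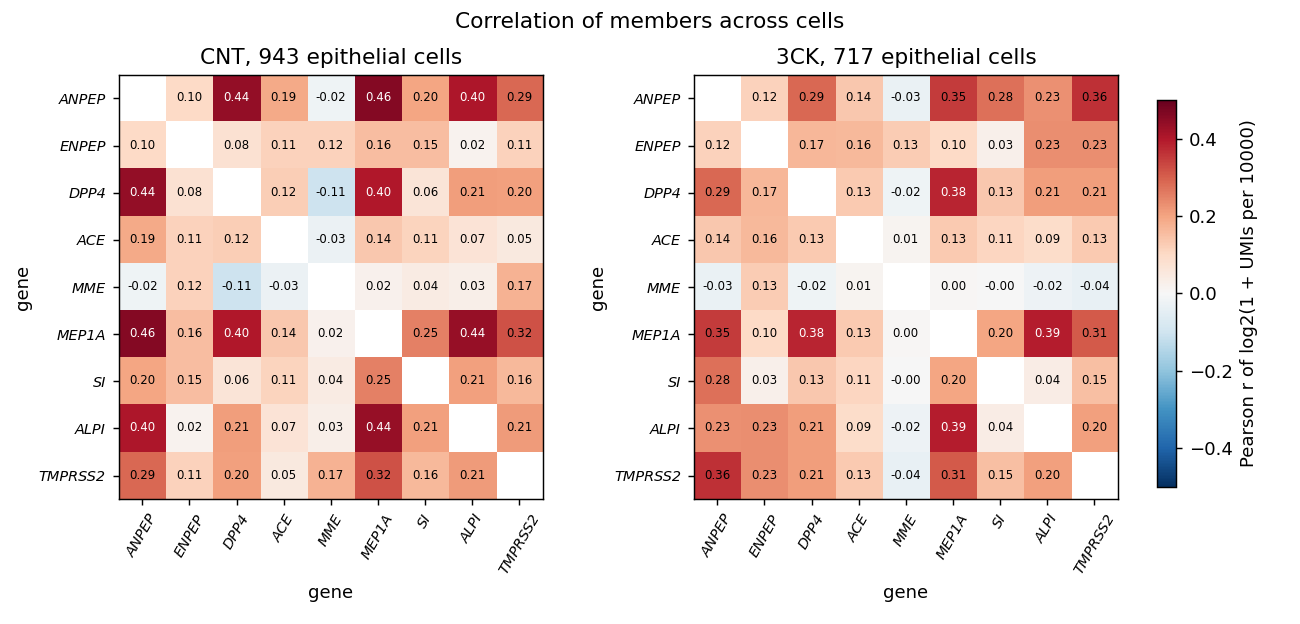
Pearson correlation between the 9 genes across 943 CNT and 717 3CK epithelial cells, on log2(1 + UMIs per 10000), with the value in each square. In CNT the darkest squares are those of ANPEP with MEP1A and DPP4 and of MEP1A with ALPI (0.44 to 0.46), and in 3CK they are those of MEP1A with ALPI (0.39) and DPP4 (0.38) and of ANPEP with TMPRSS2 (0.36).

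The genes most like each abundant member were sought among 8681 genes seen in at least 10% of thinned CNT cells. ANPEP was nearest to FABP1 (0.56 in CNT, 0.37 in 3CK), a fatty acid carrier, then to MUC13 (0.48, 0.35), a transmembrane mucin, and CREB3L3 (0.47, 0.35), a factor of lipid metabolism. MEP1A was nearest to FABP1 (0.55, 0.41), CDHR5 (0.53, 0.44), a protocadherin that links microvilli, and MUC13 (0.50, 0.34). ALPI was nearest to MUC13 (0.51, 0.30), CREB3L3 (0.48, 0.36) and the apolipoprotein APOA4 (0.47, 0.34).

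DPP4 had other neighbours: HEPH (0.50, 0.46), the ferroxidase of iron export, SELENOP (0.48, 0.39), a selenium carrier, and CDH17 (0.46, 0.52), the intestinal cadherin. TMPRSS2 was nearest to TMEM45B (0.48, 0.58), MUC13 (0.47, 0.57) and CEACAM6 (0.44, 0.45), a cell adhesion molecule of the surface epithelium. MUC13 was among the nearest 3 of 4 of the 5 genes ranked in CNT. Ranked in 3CK among 8730 genes, with ALPI under 10 CPM and not ranked, it was so for TMPRSS2 alone of 4 genes. ANPEP was then nearest to ADGRG7 (0.57), MTTP (0.57) and APOB (0.49), and MEP1A to SELENOP (0.48), SLC44A4 (0.44) and CDHR5 (0.44).

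Other enzymes of the same membrane and genes of related roles were read from fixed lists. No test was made, and genes at 5 CPM or more in either library were counted, a floor not applied to the 9 genes above. The shares over all epithelial genes to set beside these counts are the 11.8% lower and 8.89% higher given above. Of 18 other brush-border hydrolases 7 reached that level; 2 were at least 2-fold lower in 3CK, none was 2-fold higher, and their median log2 ratio was -0.46. The ends of the list were ENPP7, an alkaline sphingomyelinase, at 8.53 and 2.78 CPM (log2 ratio -1.62) and PLB1, a phospholipase, at 4.99 and 6.13 CPM (log2 ratio 0.30). Lactase, LCT, was the other gene past 2-fold, at 17.6 and 6.35 CPM.

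Of 11 genes listed for the transport of peptides, amino acids and sugars, 9 were measured. Of these, 5 were at least 2-fold lower, none was 2-fold higher, and the median was -1.002. SLC1A1, a glutamate transporter, was the most abundant at 110.5 and 55.2 CPM, and its log2 ratio of -1.002 was only just past 2-fold. SLC2A5, the fructose transporter, was the furthest down at 19.9 and 1.48 CPM (log2 ratio -3.75), and SLC36A1 the furthest up at 13.5 and 16.1 CPM (0.26). SLC15A1, which takes up the dipeptides and tripeptides that the peptidases release, stood at 60.4 and 63.9 CPM, a log2 ratio of 0.08; it was named for that role after its value was seen. SLC6A20, under the floor and also named after its value was seen, had 32 UMIs in CNT against 302 in 3CK, a log2 ratio of 3.25. SLC5A1, also under the floor, went the other way, with 120 UMIs in CNT against 32 in 3CK, a log2 ratio of -1.90.

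Of 17 intracellular and endoplasmic reticulum peptidases, all measured, 3 were at least 2-fold higher (LAP3, ERAP2 and ERAP1) and 1 was 2-fold lower (DPP7), with a median of 0.22. LAP3, a cytosolic leucine aminopeptidase known to be induced by interferon, was 40.2 CPM in CNT against 577.7 CPM in 3CK, a log2 ratio of 3.85. ERAP2 and ERAP1, which trim peptides for presentation on MHC class I, had log2 ratios of 3.54 and 1.66, and DPP7, a lysosomal dipeptidyl peptidase, was 117.2 and 53.6 CPM (-1.13).

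Among 11 other membrane serine proteases and their inhibitors 6 were measured, 1 was at least 2-fold lower (TMPRSS6, -1.96), none was 2-fold higher, and the median was 0.04. The protease inhibitor SPINT2 was the most abundant at 997.8 and 925.8 CPM, and matriptase, ST14, had the largest ratio among those measured, 0.36. TMPRSS3, under the floor and named after its value was seen, had 18 UMIs in CNT against 249 in 3CK, a log2 ratio of 3.80. Of 15 intestinal transcription factors 14 were measured, 2 were at least 2-fold lower (ONECUT2, -1.41, and MAF, -1.09), none was 2-fold higher, and the median was -0.17, a count near the share of all genes that were 2-fold lower. GATA6 was the most abundant factor at 108.8 and 57.6 CPM (-0.92), and ELF3 had the largest ratio at 51.9 and 102.8 CPM (0.99). CDX2, the intestinal identity factor, stood at 81.4 and 83.3 CPM, a log2 ratio of 0.03, and was named for that role after its value was seen.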

How the data were processed

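The deposited matrices hold raw UMI counts for each gene in each barcode; per the file headers they were written by Cell Ranger 7.1.0, and the submitters' processing notes name GRCh38. The annotation release and the strand and intron settings of the counting are not given there. Gene positions are from GENCODE on GRCh38 and promoter sequences from RefSeq (GRCh38.p14).

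The libraries held 3257 CNT and 1641 3CK barcodes with 105314879 and 94887438 UMIs, and shared 0 barcodes. Kept barcodes had at least 500 genes and at most 20% mitochondrial UMIs; Scrublet in scanpy 1.11.5 removed 52 and 16 doublets as the highest scores, at 0.8% per 1000 barcodes, which left 2487 and 1398. Counts were summed per class and library. Intervals came from scipy 1.17.1: exact Poisson for a level, conditional exact binomial for a ratio, and Clopper-Pearson for a share. No tests were made. A gene with 3 UMIs or fewer in both libraries got no ratio, and a gene was called past 2-fold by its ratio alone. The calculation was tested on simulated data.

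The members and the gene lists were chosen with earlier results of these data known. Named genes were all members, the most abundant gene and both ends of each list among genes with at least 5 CPM, and the 3 genes most correlated with each member above 10 CPM; 1 gene that the rule names is not reported here. Of the listed genes, GGT1 was left out because its symbol repeats. Alternatives covered cell filters, class thresholds, scaling (edgeR 4.0.16 TMM and DESeq2 1.42.0 size factors, used for scaling only), weighting of cells and single-cell leave-outs.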

Additional observations from a re-analysis of the deposited data

Results flagged for a closer look

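ANPEP and DPP4 had ratios on opposite sides of 0 in epithelial and collagen-positive cells, with both counting intervals clear of 0. ANPEP had a log2 ratio of 3CK over CNT of -1.70 in epithelial cells and 1.17 in collagen-positive cells. DPP4 had -0.28 in epithelial cells and 0.40 in collagen-positive cells. Of all genes, 5.504% in epithelial cells and 94.4% in collagen-positive cells had a ratio at or below that of ANPEP. For DPP4 those shares were 32.3% and 83.2%. How many of all genes had ratios on opposite sides of 0 in these classes was not counted. DPP4 was also split by TTR within the epithelium, with -0.073 at 500 or more TTR UMIs per 10000, -0.29 at 50 to 500 and 0.75 under 50. These came from 34 comparisons of a gene between classes of cells, and with 1 library a group the differences were not tested.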

How the results depend on the processing

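No ratio past 2-fold turned direction under any setting tried; among the smaller ones, ENPEP reached -0.31 in epithelial cells and ALPI 0.76 in FABP2/RBP2 cells. Over the epithelial alternatives the log2 ratio ran from -1.98 to -1.53 for ANPEP, -2.21 to -1.83 for MEP1A, -3.22 to -2.003 for SI, -2.23 to -1.41 for ALPI and 1.07 to 1.53 for TMPRSS2, and each stayed past 2-fold under these settings; the reweighting to the CNT shares of TTR ranges put ANPEP at -0.91, inside 2-fold. MME ran from -1.47 to -0.52 and kept 2-fold in 12 of 16. The count of members 2-fold lower in epithelial cells was 5, and 3 when members under 5 CPM (SI and MME) were left out. In FABP2/RBP2 cells the count 2-fold lower was 4, and 2 with cells thinned to 10000 UMIs, where SI, with no 3CK UMI left, had a bound of -0.12. Other settings took further genes past 2-fold lower in that class. ACE stayed inside 2-fold in 13 of 19 alternatives and reached -1.75 without cells at 500 or more TTR per 10000. ALPI reached -1.03 with FABP2 alone at 1 or more per 10000. The count 2-fold higher in FABP2/RBP2 cells was 2, and 1 with EPCAM at 5 or more per 10000 or without cells at 500 or more TTR per 10000. The scaling choices moved every gene's epithelial log2 ratio by -0.12 to 0.02 and its FABP2/RBP2 ratio by -0.22 to -0.13. The causes were not tested. No paired analysis was possible because each group is 1 library. The 13 FABP2/RBP2 cells of 3CK limit that class: 3 UMIs there equal 3.45 CPM, against 0.581 CPM in CNT.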

Other observations

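Cells outside the epithelial and collagen-positive classes showed the members too. In the deep barcodes with neither EPCAM nor collagen above its threshold, 110 in CNT and 156 in 3CK, MME was 11.1 CPM in CNT and 30.4 CPM in 3CK, a log2 ratio of 1.45 (1.03 to 1.90), while ANPEP was 136.0 and 42.4 CPM, a log2 ratio of -1.68 (-1.85 to -1.51). ENPEP had its highest CNT level of the classes measured there, 19.7 CPM, and 13.6 CPM in 3CK. In cycling epithelial cells, 12 in CNT and 18 in 3CK with MKI67 and TOP2A together at 2 or more per 10000, TMPRSS2 was 15.7 and 51.7 CPM and SI had no UMI in either library. With so few cells 3 UMIs equal 3.36 CPM in CNT and 1.40 CPM in 3CK, beside SI levels of 4.67 and 0.764 CPM over all epithelial cells.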
